A study of Homo sapiens with 18 samples.

Results

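The libraries labelled SRSF2-OE and SRSF4-OE were compared directly, in both directions and across all genes, without the empty-vector control as the reference. The 2 groups held 6 of the 18 samples of the series, which came from 5 of its 14 sequencing libraries. Of 60252 gene identifiers, 21326 passed the filter on low counts and were tested. All samples were of MCF-10A, a human breast epithelial line that is immortalised but does not form tumours, kept for 8 days as 3D structures in Matrigel, a basement membrane gel. Per the labels' protocols, every culture carried a stable retroviral construct: that of SRSF2-OE held the SRSF2 coding sequence, that of SRSF4-OE held the SRSF4 coding sequence, and that of Control was the empty PWZL vector. Control values are given only as a description. The sources used here do not say whether a line was 1 clone or a pool, or whether replicates were grown separately, and the p-values therefore rest on a spread that may be no more than technical. SRSF2-OE was represented by 3 libraries (1, 2 and 3). SRSF4-OE was represented by 2, because its samples 1 and 2 were lanes of a single library and were summed (1-2), beside library 3.

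SRSF2 and SRSF4 are SR proteins, regulators of pre-mRNA splicing that bind exonic enhancers through RNA recognition motifs and contact other spliceosome proteins through a domain rich in arginine and serine. SRSF2 carries a single recognition motif and recognises both C-rich and G-rich elements, whereas SRSF4 carries a pair of them and has a longer arginine-serine domain. SR protein genes are known to limit their own transcripts, in part through poison exons that direct the mRNA to nonsense-mediated decay. Splicing was not analysed here.

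The introduced sequences share little exact sequence, which bears on whether counts of the 2 genes can be told apart. In the GENCODE release 29 transcripts, on the minus strand of chromosome 17 from 76734115 to 76737374 (GRCh38), SRSF2-202 has a coding sequence of 666 bases for 221 residues, with 45.7% arginine or serine codons. SRSF4-201, on the minus strand of chromosome 1 from 29147743 to 29181987, has 1485 coding bases for 494 residues, with 43.7% such codons. The longest exact run shared by the 2 coding sequences was 12 bases, against reads of 101 bases. It is shown in capitals, 5′ to 3′, with 60 coding bases on either side, in the part of each sequence rich in arginine and serine codons.
SRSF2 coding bases 499 to 630: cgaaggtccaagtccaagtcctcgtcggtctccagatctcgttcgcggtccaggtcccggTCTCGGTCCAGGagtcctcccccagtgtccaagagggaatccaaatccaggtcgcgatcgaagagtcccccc
SRSF4 coding bases 598 to 729: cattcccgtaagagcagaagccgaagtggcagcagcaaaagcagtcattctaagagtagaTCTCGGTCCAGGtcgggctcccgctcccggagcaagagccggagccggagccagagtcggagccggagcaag
Both stretches repeat arginine and serine codons, but in different bases outside the capitals. The SRSF2 stretch lies in exon 2 and the SRSF4 stretch spans exons 5 and 6. Counts per gene do not separate transcripts of an introduced coding sequence from those of the endogenous gene. SRSF2 exons overlap those of MFSD11 on the opposite strand in that annotation, and the strand setting of the counting was not stated.

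SRSF4 separated the 2 groups and SRSF2 did not. Levels are in CPM, which are counts scaled to a common, TMM-normalised library size. SRSF4 stood at 92.6, 99.5 and 91.7 CPM in the libraries labelled SRSF2-OE 1, 2 and 3, against 187 and 168 CPM in SRSF4-OE 1-2 and 3 and 95.5 and 71.4 CPM in Control. Both SRSF4-OE libraries were above every other library of the series, whose 9 members outside the comparison ranged from 71.4 to 106 CPM. The log2 fold change (SRSF2-OE over SRSF4-OE, here and throughout) was -0.81 ± 0.14 (standard error). In edgeR's quasi-likelihood test the unadjusted p was 0.000175, but the adjusted p over all genes was 0.557. DESeq2 gave an adjusted p of 6.6e-04, which became 0.0892 without SRSF4-OE 1-2 and 1 without SRSF4-OE 3. A single SRSF4-OE library was left in each of these 2 fits and was assumed to vary like the libraries of other groups.

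SRSF2 stood at 214, 396 and 310 CPM in the libraries labelled SRSF2-OE 1, 2 and 3, against 272 and 248 CPM in SRSF4-OE and 204 and 176 CPM in Control. The 2 groups overlapped: SRSF2-OE 1 lay below both SRSF4-OE libraries and inside the 176 to 266 CPM of the 9 libraries of the other groups, while SRSF2-OE 2 and 3 lay above all of them. The log2 fold change was 0.35 ± 0.24, and edgeR's adjusted p was 0.706. Without library 1 or without library 2 it was 0.55 and 0.12. Because the level of SRSF2 did not bear out the label of library 1, directions below are those of the libraries labelled SRSF2-OE.

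**Figure D1:**
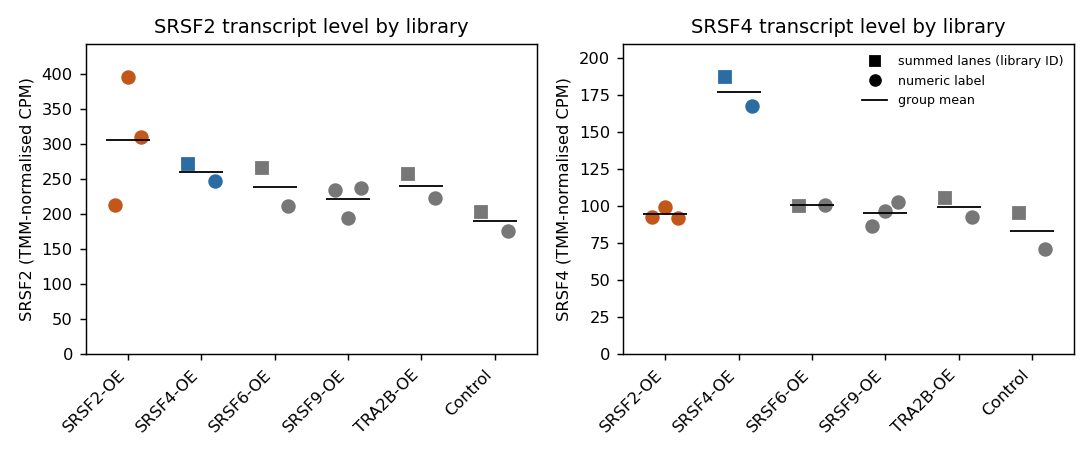
SRSF2 (left) and SRSF4 (right) in normalised CPM in each of the 14 libraries, by group, with squares for summed lanes, circles for libraries with numeric labels and lines for group means. SRSF4 is at 187 and 168 CPM in SRSF4-OE and at 106 CPM or less elsewhere, whereas SRSF2-OE 1 lies among the other groups at 214 CPM of SRSF2.

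The other introduced factors lay close between the groups. SRSF9 stood at 91.6, 98.8 and 98.7 CPM in SRSF2-OE, against 105 and 110 CPM in SRSF4-OE, with a log2 fold change of -0.15. TRA2B stood at 140, 132 and 129 CPM in SRSF2-OE, against 158 and 168 CPM in SRSF4-OE, with a log2 fold change of -0.22. Neither gene overlapped between the groups, and both were lower in SRSF2-OE. SRSF6 stood at 307, 297 and 412 CPM in SRSF2-OE, against 448 and 352 CPM in SRSF4-OE, with overlap. Its log2 fold change was 0.01, a value whose sign depended on the fit.

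The libraries labelled SRSF2-OE differed more from each other than from SRSF4-OE in places, and this bears on every result that follows. They held 52846279, 52246116 and 44064768 counts, against 83119075 and 47704939 in SRSF4-OE. On the first principal component of log2 CPM, with 48.8% of the variance, SRSF2-OE 1 and 3 scored -75.9 and -62.4. SRSF2-OE 2 scored 58.1, beside 26.5 and 53.7 for SRSF4-OE. The second component, with 26.9%, put SRSF2-OE 2 at -72.4 and SRSF4-OE at 47.9 and 38.3. Across genes, SRSF2-OE 2 correlated at 0.952 and 0.958 with libraries 1 and 3 of its own group and at 0.972 with SRSF4-OE 3. Several libraries correlated best outside their own group: SRSF2-OE 1 at 0.989 with TRA2B-OE 3 (0.980 with library 3), SRSF2-OE 2 at 0.981 with SRSF9-OE 3, and SRSF4-OE 1-2 at 0.989 with SRSF6-OE 1-2 (0.984 with SRSF4-OE 3). Mitochondrially encoded genes took 16.4%, 8.31% and 11% of counts in SRSF2-OE, against 8.58% and 8.96% in SRSF4-OE. All 3 SRSF2-OE libraries carried numeric labels in their descriptions, while SRSF4-OE 1-2 carried a library ID and SRSF4-OE 3 a numeric label. The model therefore held a term for label set, estimated from 4 groups that held both. The fitted fold changes can differ from ratios of mean CPM for that reason.

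**Figure D2:**
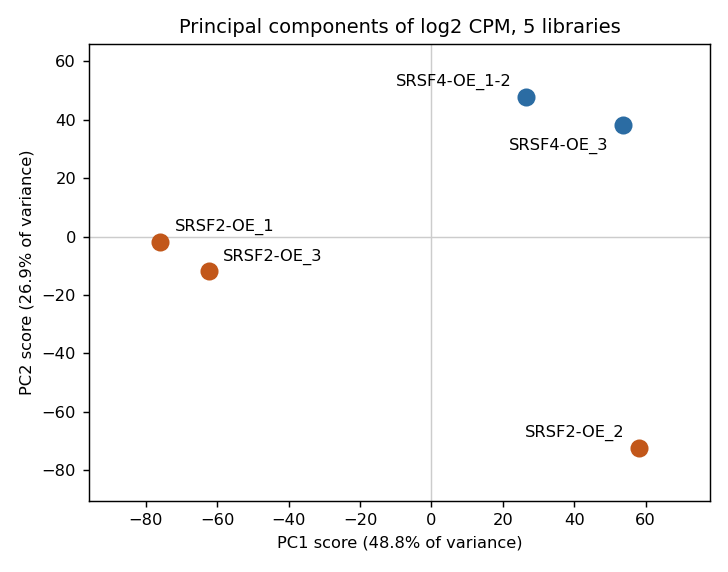
Scores of the 5 libraries on the first 2 principal components of log2 CPM, with SRSF2-OE in orange and SRSF4-OE in blue. SRSF2-OE 1 and 3 lie at -75.9 and -62.4 on the first component, and SRSF2-OE 2 lies at 58.1, on the side of SRSF4-OE.

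Markers of basal epithelium were present in both groups, and not every marker of the line is given here. KRT5, KRT14 and KRT17, keratins of basal epithelium, stood at 699 to 18176 CPM in SRSF2-OE and 2234 to 10594 CPM in SRSF4-OE. TP63, the basal epithelial transcription factor, stood at 178 to 214 CPM in SRSF2-OE and 151 to 166 CPM in SRSF4-OE. CDKN2A, the cell cycle inhibitor gene known to be deleted in this line, was listed at 0 in all 14 libraries. So were 2427 of 19654 protein-coding genes, among them DKC1 and RFC2, which growing cells use, so a 0 in these counts does not show that a gene is absent. Among 23 markers of fibroblasts, immune cells and endothelium, 11 passed the filter. COL1A2, COL3A1, CD3E, LYZ, HBB, CDH5 and CLEC14A were each at 0.0213 CPM or less in every library of both groups, with the same limit on what a 0 shows. Other markers were present: COL1A1 stood at 142.6 to 277.6 CPM in SRSF2-OE and 105 to 117 CPM in SRSF4-OE, FAP at 2.03 to 26.7 CPM in SRSF2-OE and 50.9 to 64.3 CPM in SRSF4-OE, and CSF1R at 32.2 to 34.95 CPM in SRSF2-OE and 12.1 to 22.9 CPM in SRSF4-OE. In such bulk samples, fewer cells of a type and less RNA per cell cannot be told apart.

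No gene was called by edgeR at an adjusted p under 0.05 (0% of 21326 genes tested, smallest adjusted p 0.514). At an unadjusted p under 0.05 there were 1660 genes, or 7.78%, where 1066 would be expected with no difference. The test of limma-voom also called 0 genes, with 1569, or 7.36%, at an unadjusted p under 0.05. DESeq2 on the same libraries and terms called 81 genes (0.38%), of which 42 (0.197%) were higher and 39 (0.183%) lower in SRSF2-OE. Without SRSF2-OE 1, 2 or 3, DESeq2 called 153, 475 and 27 genes, and 57, 74 and 23 of them were among the 81. Without SRSF4-OE 1-2 it called 9 genes, 8 of them among the 81, and without SRSF4-OE 3 it called 5, of which 3 were. In 3377 genes (15.8%) all SRSF2-OE libraries lay above both SRSF4-OE libraries, and in 3185 (14.9%) all lay below. The median log2 fold change over all genes tested was 0.06, and 55.8% of genes had a value above 0. These shares are the background for every count below.

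**Figure D3:**
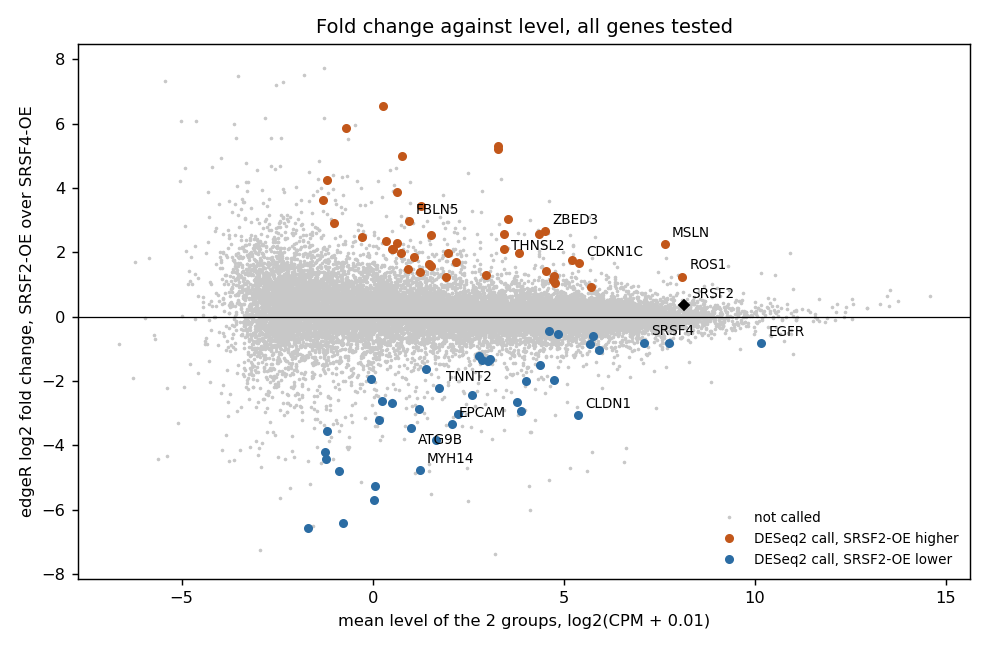
Log2 fold change (SRSF2-OE over SRSF4-OE, edgeR) against the mean level of the 2 groups on a log2(CPM + 0.01) scale for the 21326 genes tested. Orange and blue points are the 42 and 39 genes called higher and lower by DESeq2, and the black diamond is SRSF2, at 0.35.

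Since edgeR called none, the 12 most strongly higher and 12 most strongly lower protein-coding genes described next were taken from the DESeq2 calls. They also had no overlap between the groups and a mean of at least 3 CPM in the higher group. The fold changes and errors given are edgeR's, and the adjusted p is DESeq2's. All 24 kept their direction in the 19 alternative fits. Their DESeq2 call held for 15, 23 and 8 of the 24 without SRSF2-OE 1, 2 and 3, for 3 without SRSF4-OE 1-2 and for 0 without SRSF4-OE 3. Their selection required both the DESeq2 call and the separation of the groups, so neither is further support. The kept direction largely follows from that separation, since the alternatives reuse these libraries, and is no further support either.

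Among the protein-coding genes higher in SRSF2-OE, THNSL2, which encodes a threonine synthase-like protein, had the smallest p. It stood at 28.8, 11.7 and 14.8 CPM in SRSF2-OE, against 3.37 and 2.88 CPM in SRSF4-OE and 33.9 and 34.6 CPM in Control. Its log2 fold change was 2.57 ± 0.44 with a DESeq2 adjusted p of 2.8e-05, and 0.353 without SRSF4-OE 3. The 2 SRSF4-OE libraries stood apart from both other groups, and SRSF2-OE was between them and Control. CDKN1C encodes p57, an inhibitor of cyclin-dependent kinases. Its levels were 83.3, 57.1 and 62.0 CPM in SRSF2-OE, against 14.9 and 19.4 CPM in SRSF4-OE and 37.6 and 32.9 CPM in Control. Here SRSF2-OE lay above Control and SRSF4-OE below it, with a log2 fold change of 1.67 ± 0.35 and a DESeq2 adjusted p of 0.00481.

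MSLN encodes mesothelin, a surface glycoprotein anchored by glycosylphosphatidylinositol, and MSLNL a related protein. MSLN stood at 144, 357 and 408 CPM in SRSF2-OE, against 132 and 57.1 CPM in SRSF4-OE and 103 and 71.8 CPM in Control. MSLNL stood at 8.94, 14.2 and 25.6 CPM in SRSF2-OE, against 7.52 and 3.17 CPM in SRSF4-OE and 6.87 and 2.20 CPM in Control. In both genes SRSF2-OE 1 lay close to SRSF4-OE 1-2, and libraries 2 and 3 were well above. ROS1, a receptor tyrosine kinase gene with high expression here, stood at 367, 247 and 470 CPM in SRSF2-OE, against 219 and 150 CPM in SRSF4-OE and 458 and 256 CPM in Control. PIK3R3, a regulatory subunit of phosphoinositide 3-kinase, stood at 37.3, 31.9 and 36.3 CPM in SRSF2-OE, against 19.7 and 15.3 CPM in SRSF4-OE. The SRSF2-OE values of PIK3R3 lay close together, with no overlap with SRSF4-OE.

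Library 1 was the highest of the SRSF2-OE libraries for FBLN5, ZBED3 and NRSN2. FBLN5, which encodes the elastic-fibre protein fibulin-5, stood at 5.87, 1.32 and 2.47 CPM in SRSF2-OE, against 0.598 and 0.563 CPM in SRSF4-OE. ZBED3, an axin-binding zinc finger protein, stood at 73.3, 15.8 and 23.8 CPM in SRSF2-OE, against 8.53 and 6.86 CPM in SRSF4-OE. NRSN2, a neurensin, stood at 8.18, 3.29 and 2.29 CPM in SRSF2-OE, against 1.78 and 0.459 CPM in SRSF4-OE. In all of these genes every SRSF2-OE library was above both SRSF4-OE libraries, but the spread within SRSF2-OE was wide. ZBED3 exons overlap an antisense gene. GPM6B, a membrane glycoprotein of neural cells, stood at 30.5, 40.2 and 27.3 CPM in SRSF2-OE, against 26.3 and 17.3 CPM in SRSF4-OE, and the nearest libraries nearly met. KANK2, an adaptor of integrin adhesions, stood at 72.1, 56.7 and 75.9 CPM in SRSF2-OE, against 37.7 and 35.6 CPM in SRSF4-OE. KANK2 was clear of overlap, with both SRSF4-OE libraries close together. Over the 12 higher genes the log2 fold change ranged from 0.91 in KANK2 to 2.98 in FBLN5.

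Among the genes lower in SRSF2-OE, CLDN1 encodes claudin-1, a strand-forming protein of tight junctions. It stood at 11, 6.06 and 8.55 CPM in SRSF2-OE, against 61.7 and 85.8 CPM in SRSF4-OE and 77.1 and 168 CPM in Control. The lowest SRSF4-OE library was far above the highest SRSF2-OE library, and Control was on the side of SRSF4-OE. The log2 fold change was -3.06 ± 0.67, with a DESeq2 adjusted p of 0.00402 that was 0.0507 without SRSF4-OE 1-2 and 1 without SRSF4-OE 3. EPCAM, an epithelial adhesion molecule, stood at 1.25, 1.07 and 0.540 CPM in SRSF2-OE, against 4.78 and 9.98 CPM in SRSF4-OE and 1.41 and 4.42 CPM in Control. POF1B, an actin-binding protein of epithelia, stood at 3.82, 4.25 and 3.64 CPM in SRSF2-OE, against 16.7 and 30.4 CPM in SRSF4-OE and 7.07 and 18.4 CPM in Control. In EPCAM and POF1B the SRSF2-OE libraries lay together, and the spread was in SRSF4-OE and Control.

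TNNT2, the gene of cardiac troponin T, stood at 1.81, 1.15 and 1.06 CPM in SRSF2-OE, against 3.43 and 7.11 CPM in SRSF4-OE, with a DESeq2 adjusted p of 9.3e-05. Its exons overlap LAD1 on the same strand, so reads may be shared. MAPK13, the stress kinase p38 delta, stood at 9.75, 5.76 and 4.34 CPM in SRSF2-OE, against 20.9 and 30.5 CPM in SRSF4-OE. ELAVL2, a neuronal RNA-binding protein, stood at 4.64, 4.69 and 4.34 CPM in SRSF2-OE, against 8.36 and 9.71 CPM in SRSF4-OE and 3.65 and 6.24 CPM in Control. The SRSF2-OE values of ELAVL2 differed little, and its log2 fold change was -1.22 ± 0.24. LPCAT2, a phospholipid-remodelling acyltransferase, stood at 38.7, 39.3 and 43.9 CPM in SRSF2-OE, against 56.4 and 69.6 CPM in SRSF4-OE. ELAVL2 and LPCAT2 were named for a small unadjusted p rather than for the size of the change.

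For other genes lower in SRSF2-OE, SRSF4-OE 3 stood well above SRSF4-OE 1-2. MYH14, a nonmuscle myosin heavy chain, stood at 0.0603, 0.469 and 0.0900 CPM in SRSF2-OE, against 1.04 and 7.88 CPM in SRSF4-OE. SERPINB7, a serpin of keratinocytes, stood at 3.36, 5.27 and 5.35 CPM in SRSF2-OE, against 8.61 and 41.2 CPM in SRSF4-OE. ATG9B, an autophagy protein, stood at 0.382, 0.640 and 0.337 CPM in SRSF2-OE, against 0.835 and 6.15 CPM in SRSF4-OE. In each of the 3, SRSF4-OE 1-2 lay much nearer in CPM to SRSF2-OE than to SRSF4-OE 3. Without SRSF4-OE 3, the only SRSF4-OE library was 1-2, with a library ID, while all SRSF2-OE libraries carried numeric labels. The fitted values then depend on the label set term, estimated from other groups. The DESeq2 log2 fold changes of MYH14, SERPINB7 and ATG9B were then -3.115, -2.549 and -2.72, against -4.724, -2.966 and -3.473 with SRSF4-OE 3. In CPM, SRSF4-OE 1-2 stood at 8.61 against a mean of 4.66 in SRSF2-OE for SERPINB7, and at 0.835 against 0.453 for ATG9B. For MYH14 these levels were 1.04 and 0.207 CPM. SERPINB7 had no DESeq2 call when any 1 of the 5 libraries was left out, with adjusted p of 0.0816 to 1. ATG9B exons overlap NOS3 on the opposite strand, and NOS3 was itself among the 39 calls. BICDL2, BNIPL, RRAD and LYNX1 ranged from 0.201 to 2.43 CPM in SRSF2-OE and from 2.57 to 13.1 CPM in SRSF4-OE. BICDL2 and LYNX1 have exonic overlaps with other genes. The overlap of BICDL2 is in part with AC108134.1 on the opposite strand, which was itself among the 39 calls. Over the 12 lower genes the log2 fold change ranged from -4.76 in MYH14 to -2.02 in MAPK13.

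**Figure D4:**
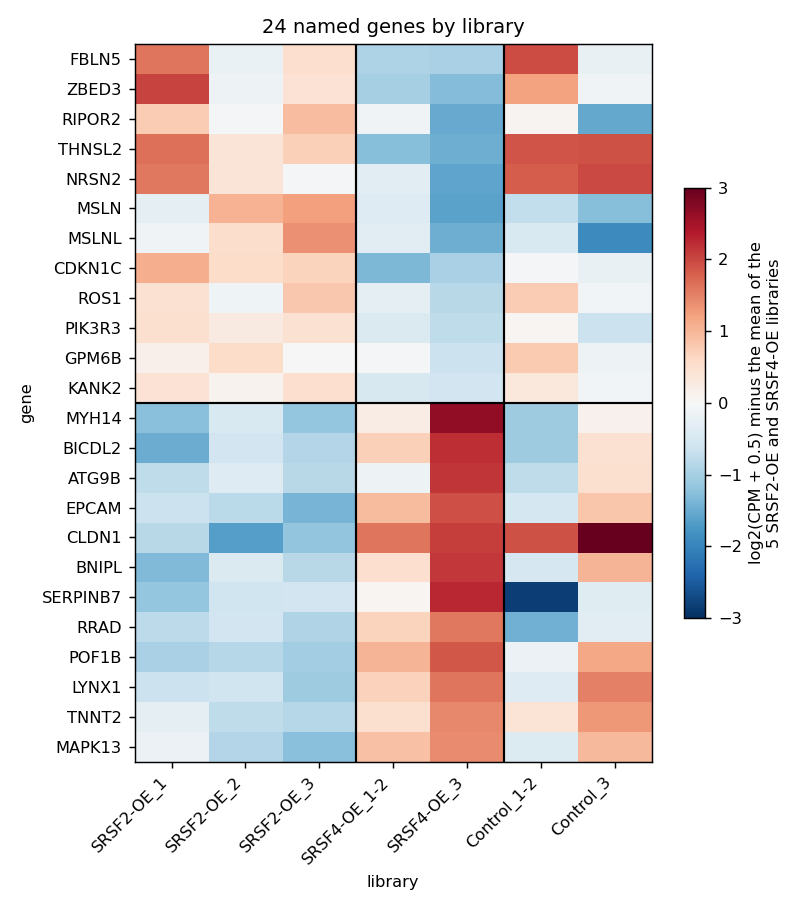
Level of 24 genes in each library as log2(CPM + 0.5) minus the gene's mean over the 5 SRSF2-OE and SRSF4-OE libraries, coloured from -3 to 3, with the 12 higher genes above the line and the 12 lower genes below it. Among the lower genes SRSF4-OE 3 is the darkest red of the 5 libraries, as for MYH14 at 7.88 CPM, and Control, at the right, is given for description.

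Gene lists were then read by their counts, each against the background of 15.8% and 14.9% of genes with no overlap. Members with no overlap are described as above or below, and edgeR called none of them. The sign of the median changed in at least 1 of the 19 alternative fits for 25 of the 39 lists. When 1 of the 5 libraries was left out, the median of 38 of the 39 lists moved by over 1.5 times or changed sign in at least 1 fit, the exception being the cornified envelope list. Of 13 SR protein genes tested, 0 lay above and 5 below, with a median log2 fold change of -0.14. 1 of the 5 was SRSF4, the gene introduced into SRSF4-OE, which says nothing about the rest of the list. The others were TRA2B, SRSF3, SRSF7 and SRSF9. SRSF7, an SR protein with a zinc knuckle, stood at 114, 124 and 116 CPM in SRSF2-OE, against 174 and 162 CPM in SRSF4-OE and 129 and 96.8 CPM in Control. Its log2 fold change was -0.36 ± 0.13, with an unadjusted edgeR p of 0.0188. Of 35 hnRNP and other splicing regulator genes, 0 lay above and 10 below, with a median of -0.07. HNRNPH3, of the hnRNP H family, stood at 90.9, 78.0 and 89.7 CPM in SRSF2-OE, against 153 and 130 CPM in SRSF4-OE and 156 and 116 CPM in Control. HNRNPD, the ARE-binding protein AUF1, stood at 149, 168 and 157 CPM in SRSF2-OE, against 231 and 215 CPM in SRSF4-OE. Of 12 genes for SR protein kinases and phosphatases, 2 lay above and 3 below, with a median of 0.03. PRPF4B, a kinase of the spliceosome, was among those below, at 99.6, 102 and 105 CPM in SRSF2-OE, against 129 and 130 CPM in SRSF4-OE.

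Epithelial differentiation genes had the lowest list median. Of 28 cornified envelope genes, which build the barrier of terminally differentiated keratinocytes, 0 lay above and 11 below, with a median of -2.73 and 12 at an unadjusted edgeR p under 0.05. DSG1, a desmosomal cadherin of the upper epidermis, stood at 0.623, 9.47 and 2.63 CPM in SRSF2-OE, against 32.4 and 155 CPM in SRSF4-OE and 1.32 and 30.9 CPM in Control. CDSN, corneodesmosin, stood at 2.07, 2.75 and 2.65 CPM in SRSF2-OE, against 3.25 and 22.4 CPM in SRSF4-OE. KLK8, a skin protease, stood at 0.0402, 0.0427 and 0.0675 CPM in SRSF2-OE, against 0.113 and 1.90 CPM in SRSF4-OE, and was the only member with a DESeq2 call (adjusted p 0.00696, but 0.0574 without SRSF2-OE 3 and 1 without SRSF4-OE 3). The groups did not overlap in these genes, but SRSF4-OE 3 was several times SRSF4-OE 1-2. The KLK8 levels in SRSF2-OE and in SRSF4-OE 1-2 came from few reads. Of the 28 members, 4 had a log2 fold change above 0, all with overlap. KRT10, a keratin of the suprabasal epidermis and the most abundant member, was one of them, at 2106, 101 and 7203 CPM in SRSF2-OE, against 387 and 1060 CPM in SRSF4-OE. The summed level of the list, at 2256, 454 and 7458 CPM in SRSF2-OE, against 789 and 2360 CPM in SRSF4-OE, overlapped and did not follow the median. The mean log2(CPM + 0.5) of the list was 0.93, 1.79 and 1.45 in SRSF2-OE, against 2.01 and 3.57 in SRSF4-OE and 0.79 and 2.35 in Control. Over the leave-one-out fits the median ranged from -3.46 to -1.96, and over all 19 alternatives from -3.46 to -1.29.

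Of 15 S100 genes, 2 lay above and 3 below, with a median of -0.34. S100A8 and S100A9 encode the subunits of calprotectin. S100A8 stood at 49.8, 103 and 95.2 CPM in SRSF2-OE, against 362 and 287 CPM in SRSF4-OE and 54.8 and 245 CPM in Control. S100A9 stood at 94.3, 206 and 130 CPM in SRSF2-OE, against 527 and 433 CPM in SRSF4-OE and 50.4 and 302 CPM in Control. The groups were well apart in both, but their unadjusted edgeR p were 0.141 and 0.164, and the 2 Control libraries differed several-fold. Of 19 keratin genes, 4 lay above and 2 below, with a median of -0.49. KRT8, a keratin of simple epithelium, stood at 164, 158 and 110 CPM in SRSF2-OE, against 104 and 87.2 CPM in SRSF4-OE. KRT17, induced in stressed keratinocytes, stood at 1603, 699 and 1502 CPM in SRSF2-OE, against 2234 and 3345 CPM in SRSF4-OE and 6904 and 9786 CPM in Control. KRT8 was thus above and KRT17 below, and for KRT17 Control was above both groups.

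Of 14 tight junction genes, 1 lay above and 6 below, with a median of -0.34. Besides CLDN1, DESeq2 called CGN, the gene of the junction scaffold cingulin. It stood at 0.241, 0.576 and 0.36 CPM in SRSF2-OE, against 0.823 and 3.04 CPM in SRSF4-OE. Its call was lost in 4 of the 5 fits with 1 library left out and held only without SRSF2-OE 2. MARVELD3, a further junction membrane protein, stood at 3.44, 2.45 and 3.22 CPM in SRSF2-OE, against 4.88 and 6.19 CPM in SRSF4-OE and 6.65 and 10.1 CPM in Control. For CLDN1 and MARVELD3 Control lay at or above the level of SRSF4-OE 1-2. Of 18 desmosome and adherens junction genes, 2 lay above and 0 below, with a median of -0.17. Of 16 regulators of epithelial-mesenchymal transition, 3 lay above and 1 below, with a median of 0.34 whose sign changed in 4 of 19 alternatives. ZEB2, a repressor of E-cadherin, stood at 37.4, 33.6 and 43.7 CPM in SRSF2-OE, against 16 and 12.5 CPM in SRSF4-OE and 61.4 and 18.3 CPM in Control. TWIST1, another regulator of that transition, stood at 15.6, 17.2 and 22.2 CPM in SRSF2-OE, against 12.6 and 10.1 CPM in SRSF4-OE. Both lay above, with log2 fold changes of 1.63 ± 0.51 and 0.94 ± 0.24. Of 14 luminal lineage genes 2 lay above and 4 below, with a median of -0.13, and of 18 basal lineage genes 4 and 3, with a median of -0.05.

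EGFR family and ligand genes had the second lowest median, -0.98 over 13 genes tested, with 0 above and 5 below. EGFR, the receptor on whose ligand MCF-10A growth depends, stood at 1018, 842 and 916 CPM in SRSF2-OE, against 1246 and 1497 CPM in SRSF4-OE and 995 and 1423 CPM in Control. All SRSF2-OE libraries lay below both SRSF4-OE libraries. The log2 fold change was -0.83 ± 0.22, with an unadjusted edgeR p of 0.0034 and a DESeq2 adjusted p of 0.0441, which was 0.0579, 0.243, 0.593 and 1 without SRSF2-OE 2, SRSF2-OE 3, SRSF4-OE 1-2 and SRSF4-OE 3. EREG, which encodes the ligand epiregulin, stood at 9.83, 47.2 and 14.5 CPM in SRSF2-OE, against 71.1 and 59.9 CPM in SRSF4-OE and 13.2 and 16 CPM in Control. HBEGF, another ligand gene, stood at 4.38, 16.5 and 3.60 CPM in SRSF2-OE, against 17.1 and 19.2 CPM in SRSF4-OE and 2.49 and 14.4 CPM in Control. For both ligands SRSF2-OE 2 lay near SRSF4-OE, while SRSF2-OE 1 and 3 were well below. The unadjusted edgeR p were 0.253 for EREG and 0.216 for HBEGF. The median of the list was between -1.10 and -0.65 in the 19 alternatives. Of 30 immediate early and EGFR feedback genes, 7 lay above and 1 below, with a median of -0.11 that was -0.90 without SRSF2-OE 2 and 0.13 without SRSF2-OE 3. DUSP1, a phosphatase of MAP kinases, stood at 297, 378 and 279 CPM in SRSF2-OE, against 160 and 174 CPM in SRSF4-OE and 455 and 185 CPM in Control.

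Of 37 NF-kB and cytokine genes, 0 lay above and 11 below, with a median of -0.31. IL1B, the gene of interleukin-1 beta, stood at 6.27, 21.7 and 6.88 CPM in SRSF2-OE, against 27.9 and 42.5 CPM in SRSF4-OE and 4.05 and 9.26 CPM in Control. BIRC3, an apoptosis inhibitor and NF-kB target, stood at 137, 115 and 103 CPM in SRSF2-OE, against 354 and 155 CPM in SRSF4-OE and 744 and 503 CPM in Control. Both were below in SRSF2-OE, but a Control library was the lowest of all for IL1B, and Control was the highest for BIRC3. Of 16 YAP and TAZ target genes, 0 lay above and 4 below, with a median of -0.24. CTGF, a matricellular protein gene and classical target, stood at 0.261, 0.256 and 0.202 CPM in SRSF2-OE, against 0.891 and 1.31 CPM in SRSF4-OE. Of 26 TGF-beta and BMP pathway genes, 6 lay above and 6 below, with a median of -0.11. ID2, a BMP target, stood at 45.5, 16.4 and 46.9 CPM in SRSF2-OE, against 6.79 and 7.61 CPM in SRSF4-OE and 17.6 and 9.07 CPM in Control. SMAD6, an inhibitory SMAD, stood at 7.54, 4.59 and 11 CPM in SRSF2-OE, against 2.01 and 2.27 CPM in SRSF4-OE, while FST, the gene of the activin antagonist follistatin, stood at 0.181, 1.39 and 0.202 CPM in SRSF2-OE, against 3.88 and 5.07 CPM in SRSF4-OE. The BMP targets ID2 and SMAD6 were thus above and FST below.

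Matrix genes went both ways. Of 22 interstitial matrix genes, 2 lay above and 7 below, although the median was 0.32, a value whose sign changed in 9 of 19 alternatives. LOX, the gene of the collagen cross-linking lysyl oxidase, stood at 136, 61.3 and 161 CPM in SRSF2-OE, against 39.7 and 39.4 CPM in SRSF4-OE and 102 and 81.4 CPM in Control. COL12A1, a fibril-associated collagen gene, stood at 5.23, 11.8 and 9.22 CPM in SRSF2-OE, against 70.0 and 74.9 CPM in SRSF4-OE and 8.47 and 24.6 CPM in Control. LOX lay above, with a wide spread within SRSF2-OE, and COL12A1 lay below, with a gap wider than the spread within either group. They had log2 fold changes of 1.68 ± 0.53 and -2.81 ± 1.07. Of 21 basement membrane genes, 3 lay above and 1 below, with a median of 0.05. Of 15 integrin genes, 0 lay above and 3 below, with a median of -0.23 that was -0.92 without SRSF2-OE 2 and -0.11 without SRSF2-OE 1. ITGA1, the alpha-1 subunit of a collagen receptor, stood at 4.08, 5.68 and 3.42 CPM in SRSF2-OE, against 10.7 and 12.8 CPM in SRSF4-OE, and was called by DESeq2 (adjusted p 0.0441), a call lost in 4 of the 5 fits with 1 library left out and held only without SRSF2-OE 2. ITGA1 exons overlap PELO on the same strand, so reads may be shared. Of 24 matrix protease and plasminogen genes, 3 lay above and 7 below, with a median of -0.11. PLAT, tissue plasminogen activator, stood at 87.4, 55.7 and 56.5 CPM in SRSF2-OE, against 92.0 and 100 CPM in SRSF4-OE, and TIMP1, an inhibitor of matrix metalloproteinases, stood at 390, 344 and 209 CPM in SRSF2-OE, against 178 and 188 CPM in SRSF4-OE.

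SRSF2-OE 2 had the lowest mean of the 5 libraries in the mitosis and DNA replication lists. All 32 mitosis genes had a log2 fold change below 0, with a median of -0.76, but only 2 of them lay below in every library and 0 had an unadjusted edgeR p under 0.05. Their mean log2(CPM + 0.5) was 5.82, 3.88 and 5.21 in SRSF2-OE, against 5.20 and 5.99 in SRSF4-OE and 3.75 and 4.90 in Control. SRSF2-OE 2 was thus low and SRSF2-OE 1 and 3 were within the range of SRSF4-OE, and the median was -0.36 without SRSF2-OE 2 and -1.19 without SRSF2-OE 1. MAD2L1, a spindle checkpoint protein, stood at 27.8, 12.1 and 26.5 CPM in SRSF2-OE, against 38.8 and 47.9 CPM in SRSF4-OE. Of 37 DNA replication genes, 0 lay above and 4 below, with a median of -0.28 that was 0.03 without SRSF2-OE 2. MCM7, of the replicative helicase, stood at 118, 114 and 133 CPM in SRSF2-OE, against 149 and 150 CPM in SRSF4-OE. Of 15 genes for G1 cyclins and CDK inhibitors, 2 lay above and 1 below, with a median of 0.02, and CDKN1C was the member with a DESeq2 call. Of 28 ribosome biogenesis genes, 0 lay above and 8 below, with a median of -0.14. NPM1, the gene of nucleophosmin, stood at 843, 985 and 812 CPM in SRSF2-OE, against 1094 and 1230 CPM in SRSF4-OE and 842 and 1225 CPM in Control.

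Lipid and redox lists had medians close to the 0.06 of all genes tested. Of 22 cholesterol genes, 6 lay above and 2 below, with a median of 0.11, and of 15 fatty acid synthesis genes, 4 and 0, with a median of 0.00. FASN, fatty acid synthase, stood at 1082, 1045 and 878 CPM in SRSF2-OE, against 537 and 676 CPM in SRSF4-OE and 282 and 384 CPM in Control. The 3 groups did not overlap in FASN, and its log2 fold change was 0.52 ± 0.24 (unadjusted edgeR p 0.0532). Of 21 NRF2 target genes, 8 lay above and 0 below, with a median of 0.08 that stayed above 0 in the 19 alternatives. AKR1C1, an aldo-keto reductase, stood at 87.2, 92.3 and 99.6 CPM in SRSF2-OE, against 45.7 and 44.6 CPM in SRSF4-OE and 56.6 and 43.0 CPM in Control. Its values lay close together in each group, with a log2 fold change of 1.16 ± 0.44. Of 30 glycolysis and hypoxia genes, 5 lay above and 3 below, with a median of -0.08. Of 28 genes of the unfolded protein and integrated stress responses, 5 lay above and 4 below, with a median of -0.04. DDIT3, the transcription factor CHOP, stood at 14.8, 14.7 and 15.7 CPM in SRSF2-OE, against 6.84 and 6.63 CPM in SRSF4-OE and 18.9 and 13.7 CPM in Control. DDIT3 exons overlap those of MARS and MBD6.

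Of 21 p53 target genes, 1 lay above and 6 below, with a median of -0.07. MDM2, the ubiquitin ligase of p53, stood at 134, 173 and 126 CPM in SRSF2-OE, against 374 and 251 CPM in SRSF4-OE and 179 and 175 CPM in Control. RRM2B, a ribonucleotide reductase subunit induced by p53, stood at 55.8, 54.6 and 60.2 CPM in SRSF2-OE, against 144 and 108 CPM in SRSF4-OE and 139 and 110 CPM in Control. For RRM2B, SRSF2-OE stood apart from both other groups, whereas for MDM2 it was SRSF4-OE that did. The log2 fold change of MDM2 was -0.84 ± 0.22 (unadjusted edgeR p 0.00345) and that of RRM2B was -0.75 ± 0.29 (unadjusted edgeR p 0.0252). Of 15 BCL2 family genes, 1 lay above and 3 below, with a median of -0.14. BAX, a pro-apoptotic member, stood at 44.3, 53.7 and 42.8 CPM in SRSF2-OE, against 70.4 and 69.2 CPM in SRSF4-OE.

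Of 35 interferon-stimulated genes, 4 lay above and 7 below, although the median was 0.28. DESeq2 called 1 member, IFI44L, higher in SRSF2-OE (adjusted p 0.00696), but its libraries overlapped. It stood at 18.45, 8.685 and 22.85 CPM in SRSF2-OE, against 10.85 and 2.126 CPM in SRSF4-OE and 28.84 and 6.652 CPM in Control. OAS1, an oligoadenylate synthetase, stood at 17.4, 19.8 and 9.69 CPM in SRSF2-OE, against 27.7 and 28.7 CPM in SRSF4-OE and 18.5 and 44.4 CPM in Control. ISG15, a ubiquitin-like modifier, stood at 3.92, 2.43 and 3.85 CPM in SRSF2-OE, against 2.22 and 1.81 CPM in SRSF4-OE. OAS1 was thus below and ISG15 above. Of 9 MHC class I genes, 1 lay above and 1 below, with a median of 0.20, of 11 complement genes, 0 and 1, with a median of 0.21, and of 10 histone genes, 2 and 0, with a median of 0.43. All 15 mitochondrially encoded genes had a log2 fold change above 0, with a median of 0.42, and 5 lay above, but SRSF2-OE 1 held the largest mitochondrial share. Without SRSF2-OE 1 the median was the lowest of the leave-one-out fits, 0.12. The fibroblast list had 6 of 10 members tested, with 1 above and 1 below and a summed level of 299.5 to 444 CPM in SRSF2-OE and 312 to 407 CPM in SRSF4-OE. The immune list had 3 of 8 tested, with 2 above and 0 below and a summed level of 35.9 to 39.99 CPM in SRSF2-OE and 16.5 to 26.1 CPM in SRSF4-OE. The endothelial list had 2 of 5 tested, with 0 above and 0 below and a summed level of 8.49 to 12.5 CPM in SRSF2-OE and 8.73 to 11.4 CPM in SRSF4-OE. The part of such cells or of mitochondrial share in any result was not tested. Fits without the label set term were among the alternatives, but the part of label set in single results was not tested either.

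**Figure D5:**
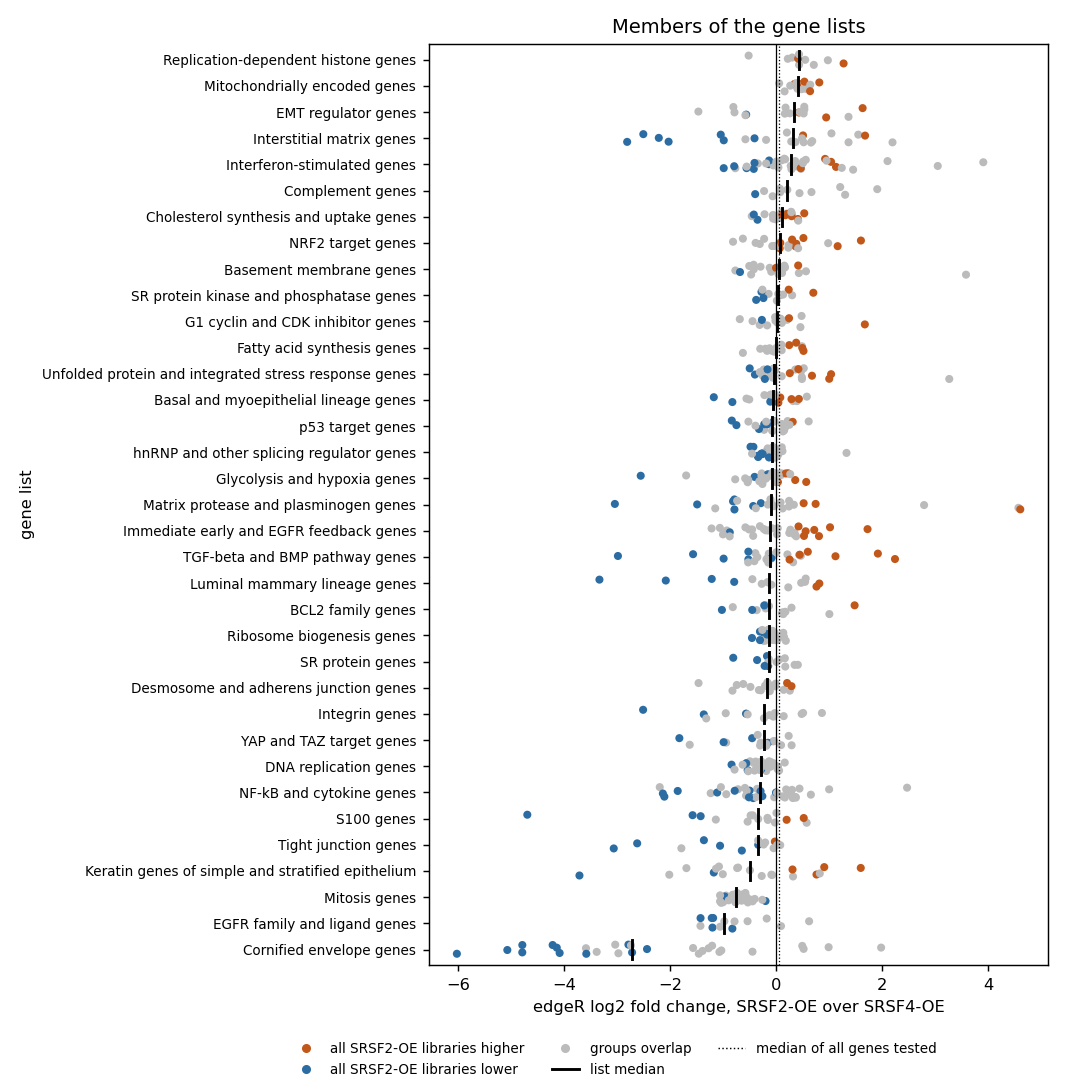
Log2 fold change (SRSF2-OE over SRSF4-OE, edgeR) of each tested member of the 35 lists with at least 10 members tested, ordered by list median, with the list median as a bar and the median of all genes tested as a dotted line. Orange and blue points are members whose libraries do not overlap, and the cornified envelope list, at a median of -2.73, lies farthest to the left.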

How the data were processed

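Gene counts of 18 samples (6 groups of 3) were used. Per the labels' protocols, RNA of structures taken from the gel went into stranded mRNA libraries, sequenced as paired 101-base reads. The authors' deposited values are whole-number raw counts per gene, 1 column per sample. Per the submitters' processing notes, the build was GRCh37 and the tools were featureCounts, Subread, STAR 2.5.1b and Trimmomatic 0.36, with no role given; strand and pair counting are not given in the sources used here, so overlapping genes and near-identical copies may share reads. Exonic overlaps are named in the text for only some of the described genes that have them, and MSLNL, PIK3R3 and ROS1 are among the rest. Gene names came from GENCODE release 29 (GRCh38, another build) by gene ID: 55910 of 60252 matched, and the 4342 others took 0.152% to 0.192% of counts.

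Lane columns with the same library ID were summed, giving 14 libraries. The mean chi-square per gene between the SRSF4-OE lanes was 4.09 (median 1.20), against 58.8 or more for pairs of different libraries within a group. Analyses used R 4.3.3 with edgeR 4.0.16 (quasi-likelihood F test, TMM, filterByExpr with a minimum count of 10, Benjamini-Hochberg adjustment, calls under 0.05), limma 3.58.1 and DESeq2 1.42.0. All 14 libraries entered 1 model of group plus label set, with 7 residual degrees of freedom and a common biological coefficient of variation of 0.318. The script was tested on simulated data.

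Members and the 39 gene lists were chosen with earlier results of these data known. Named genes were the 5 introduced factors; the 12 largest log2 fold changes in each direction among called genes with no overlap and a mean of at least 3 CPM in the higher group, filled from DESeq2 calls since edgeR called none; the 4 with the smallest p in each direction; and up to 4 members per list with no overlap, of which a selection is described. NOS3, AC108134.1, IFI44L, FUCA2, LINC01127, KRT1, KRT10, DKC1, RFC2, COL1A1, FAP and CSF1R were named after their values were seen. BIM, CD24 and PECAM1 were not matched by symbol. Alternatives changed normalisation, filter, tool, terms, libraries and lanes, and DESeq2 with libraries left out was added after the data were seen. The values of 1 of the 12 higher genes and of 1 marker are not reported here.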

Additional observations from a re-analysis of the deposited data

How the results depend on the processing

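With edgeR the count of called genes was 0 under another normalisation, no filter, a minimum count of 30, limma-voom in its place, no label set term, 12 libraries without Control, the 10 numeric-label libraries, the 5 libraries alone, and without SRSF2-OE 1 and TRA2B-OE 3 together. It was 81 with DESeq2, 15 with the 18 samples as separate replicates and 23 with only the 6 samples, where lanes of a single library count as replicates. With 1 library left out it ranged from 0 to 1, the call being FUCA2 without SRSF2-OE 1. DESeq2 called 5 to 475 genes with 1 library left out, 396 without SRSF2-OE 1 and TRA2B-OE 3, and 538 on the 5 libraries alone (51 of them among the 81), all fits added after the data were seen. The SRSF4 log2 fold change was -0.83 with DESeq2, -0.83 with 18 samples and -0.94 with 6 samples, past the threshold in each (adjusted p 6.6e-04, 0.0215 and 0.0447). The SRSF2 value kept its sign in all 19 alternatives, from 0.12 to 0.55, and its side of the threshold.

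Deviations of same-numbered samples from their group means correlated at 0.13, -0.19 and -0.16. SRSF4-OE samples 1 and 2 were lanes of a single library, so these values cannot show whether replicate numbers paired the samples. With the replicate block the 6 samples gave 2 calls, LINC01127 and KRT1.

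The SRSF6 log2 fold change changed sign with RLE size factors and DESeq2 (-0.0151 each), no filter (-0.0209), limma-voom (-0.00934), no label set term (-0.24), the 5 libraries with group alone (-0.26) or label set (-0.0758), no Control (-0.0609), 6 samples (-0.31), the replicate block (-0.32) and numeric labels (-0.0801), and ranged from -0.16 to 0.10 with 1 library left out. The cause was not tested. With 7 residual degrees of freedom and 2 SRSF4-OE libraries, and low counts for genes under 1 CPM, small differences were not detectable.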

Other observations

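Pseudogenes made up 17 of the 42 genes that DESeq2 called higher in the libraries labelled SRSF2-OE and 0 of the 39 called lower, against 2774 of the 21326 genes tested. The count was made after the calls were seen and was not tested. Several of the 17 are nuclear copies of mitochondrial genes. MTCO2P12, a copy of the cytochrome oxidase subunit gene MT-CO2, stood at 49.9, 53 and 71.1 CPM in SRSF2-OE, against 14.3 and 17.9 CPM in SRSF4-OE and 31.9 and 28.5 CPM in Control. MTCO1P40, a copy of MT-CO1, stood at 19.4, 21.9 and 30.8 CPM in SRSF2-OE, against 2.81 and 5.98 CPM in SRSF4-OE and 5.38 and 9.30 CPM in Control. MTND4P12, a copy of MT-ND4, stood at 28.6, 35.5 and 38.3 CPM in SRSF2-OE, against 11.8 and 13.2 CPM in SRSF4-OE and 21.7 and 17.1 CPM in Control. The groups did not overlap in any of the 3. MT-CO2 itself stood at 23082, 11392 and 12953 CPM in SRSF2-OE, against 6911 and 8949 CPM in SRSF4-OE. Reads of such copies can be shared with the mitochondrial gene, so each level is uncertain. All pseudogenes together took 3.28% to 3.56% of counts in SRSF2-OE and 3.27% to 3.58% in SRSF4-OE.

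Some further genes of the 39 lower DESeq2 calls were chosen here after their values were seen. SLURP1, a secreted protein of keratinocytes, stood at 0, 0.107 and 0.0450 CPM in SRSF2-OE, against 0.835 and 3.15 CPM in SRSF4-OE and 0.0535 and 3.67 CPM in Control. PROM2, the membrane protein prominin-2, stood at 10.3, 19.6 and 9.09 CPM in SRSF2-OE, against 22.9 and 58.5 CPM in SRSF4-OE and 5.25 and 18.2 CPM in Control. VNN1, the pantetheinase vanin-1, stood at 9.31, 6.10 and 4.86 CPM in SRSF2-OE, against 50.1 and 18.8 CPM in SRSF4-OE and 42.2 and 29.6 CPM in Control. In all 3 every SRSF2-OE library was below both SRSF4-OE libraries. Both Control libraries were above SRSF2-OE in VNN1 and below SRSF4-OE in PROM2, whereas in SLURP1 they lay far apart. IVNS1ABP, a Kelch protein first known as a partner of the influenza NS1 protein, stood at 148, 172 and 166 CPM in SRSF2-OE, against 250.0 and 287 CPM in SRSF4-OE and 150.3 and 189 CPM in Control. There the SRSF4-OE libraries stood above both other groups.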
